A study of Mus musculus with 4 samples.

Results

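Histone genes were chosen by symbol and biotype from poly-A RNA-seq libraries of cultured mouse astrocytes. They were the protein-coding genes whose symbols belong to the H1, H2A, H2B, H3 and H4 families, without symbols that hold a hyphen, and 102 of the 21843 protein-coding genes and 45703 genes of the table met that rule. By symbol, 65 were cluster histones (6 of H1, 18 of H2A, 17 of H2B, 12 of H3 and 12 of H4), 11 were replication-independent variants of somatic cells and 26 were variants known from the germline. The macroH2A genes and Cenpa, which have other symbols, were outside the rule.

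The 4 libraries, numbered 1 to 4 as in the labels, came from 4 cultures of wild-type CD-1 mice, an outbred strain, and formed 1 group. Glial cells of the frontal cortex were taken at postnatal day 4, grown with serum, B27 and 10 ng/ml EGF, reseeded at day 6 in vitro and lysed 3 days later, with the last 1 h spent in serum-free Ham's medium. The time without serum (60 min) and the treatment (1 h) were the same in all cultures. The labels name no sort for astrocytes, and they do not say whether a culture came from 1 animal or from a pool. RNA was selected with oligo-dT beads before the libraries were made.

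The genes of the histone clusters are transcribed mainly in S phase to package newly made DNA, and most of their mRNAs are not polyadenylated. They end instead just after a short stem-loop, which the stem-loop binding protein Slbp holds and the U7 small nuclear ribonucleoprotein helps to cut. Replication-independent variants such as H3.3, H2A.Z and H1.0 are made from ordinary polyadenylated mRNAs throughout the cell cycle, and some cluster genes also give polyadenylated mRNAs that run past the stem-loop. Oligo-dT selection keeps polyadenylated mRNA, so the levels given here are those of the polyadenylated transcripts and whatever else was carried over, not of all histone mRNA.

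The stem-loop was looked up in GENCODE M21 transcripts (build GRCm38), of which 100 of the 102 members had at least 1. It was searched as a stem of 6 bases that starts with GG, a loop of 4 bases with T at positions 1 and 3, and the complementary stem. The sequences below, with the 16 bases of the stem-loop in capitals and 5 bases on each side, show the site of the most abundant cluster histone H1f2, of the H2A gene H2ac18, of the H4 gene H4c9, and of the only members classed with the somatic variants that hold it, H2ax and H4f16.

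H1f2: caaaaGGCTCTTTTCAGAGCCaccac
H2ac18: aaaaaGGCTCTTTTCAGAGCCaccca
H4c9: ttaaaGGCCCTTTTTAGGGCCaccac
H2ax: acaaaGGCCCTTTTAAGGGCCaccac
H4f16: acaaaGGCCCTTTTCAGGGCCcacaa

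A stem-loop followed the coding end in 45 of 65 cluster histones (69.2%), in 2 of the 9 matched somatic variants and in 1 of 26 germline variants, against a match anywhere in a transcript of 159 of 21901 protein-coding GENCODE genes (0.726%). It began 21 to 58 bases after the coding end, with a median of 31 over the 48 members. The form shown for H1f2 and H2ac18 was shared by 27 members of H1, H2A, H2B and H3, while the stem of H4c9 and H4f16 was found among the members in H4 genes and in H2ax only. In 17 of the 20 cluster genes without a match, the longest annotated 3′ untranslated region was under 60 bases. A poly-A signal (AATAAA or ATTAAA) lay in the last 50 bases of a transcript in 15 of 65 cluster histones and in all 9 matched somatic variants, against 77.9% of the same GENCODE genes.

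All libraries were deep, with 37300485 to 42369109 estimated counts, so that 1 read was 0.0236 to 0.0268 CPM (counts per 1000000 counts of the library). Cultures 1 to 3 lay close together, with a common biological coefficient of variation (BCV, the relative spread beyond counting error) of 0.0265, against 0.107 with culture 4. All 10 astrocyte markers reached the expression minimum, from Slc1a3, a glutamate transporter, at 2601 CPM to S100b at 11.8 CPM. Among the markers of other cells, 5 of 6 for microglia, 4 of 7 for neurons, 4 of 6 for the oligodendrocyte lineage, 3 of 5 for fibroblasts and 1 of 4 for endothelium reached it. All 10 proliferation genes did too, among them Mki67, a protein of cycling cells, at 325.4 CPM and Top2a, a DNA topoisomerase of dividing cells, at 538.9 CPM.

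The first comparison was between the cluster histones and the somatic variants. Expression was set at 1 CPM or more in each of the 4 libraries, which 58.1% of all protein-coding genes reached. Of the cluster histones 24 of 65 were expressed (3 of 6 for H1, 3 of 18 for H2A, 12 of 17 for H2B, 3 of 12 for H3 and 3 of 12 for H4), of the somatic variants 9 of 11, and of the germline variants 0 of 26. No cluster histone was without a count, but 1, H2ac1, had a total of at most 3 counts over the 4 libraries, a floor below which levels and folds are not reported. Among the germline variants 12 had no count at all and 24 were at or under that floor. Per library, the germline variants together held 0.0974 to 0.224 CPM.

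The cluster histones summed to 225.8, 203.8, 209.2 and 321.9 CPM in cultures 1 to 4. The somatic variants summed to 1535, 1503, 1480 and 1897 CPM. Both sums were highest in culture 4, and the variants lay far above the cluster histones in every library. Scaled by the deposited exon length (RPKM, CPM per kilobase of combined exons), the cluster histones summed to 337.4 ± 69.4 and the somatic variants to 967.1 ± 105.8 (SD, n = 4), a log2 ratio of -1.53 ± 0.13. The variants were thus 2.90-fold above the cluster genes per length, and the cluster genes held 25.6%, 24.1%, 25.0% and 28.1% of the joint RPKM in cultures 1 to 4. With a coding length in place of the exon length the log2 ratio was -2.82, and with H2ax, which has both kinds of 3′ end, among the cluster genes it was -0.91. No p-value is given for a score over the members. In bulk RNA, fewer cells of a type and less RNA per cell cannot be told apart.

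The balance differed widely between the histone types. For the linker histones (H1), the cluster genes had 129.4 ± 53.1 summed RPKM and the variants 119.6 ± 25.3 (SD, n = 4), and the log2 ratio of 0.06 ± 0.24 was smaller than its spread. This balance rests on the exon length, since without it cluster H1 had 94.6 ± 38.9 CPM against 225.0 ± 52.4 for the variants, a log2 ratio of -1.30 ± 0.21. For H2A the cluster genes had 39.2 ± 1.87 RPKM against 449.0 ± 47.0 for the variants, which were 11.4-fold above. For H3 the values were 22.3 ± 1.74 and 398.4 ± 34.7 RPKM, and the variants were 17.8-fold above. Without length the variants were 27.5-fold above for H2A and 59.4-fold above for H3. H2B has no somatic variant under the rule, and its cluster genes summed to 116.9 ± 11.2 RPKM. The H4 cluster genes summed to 29.6 ± 5.23 RPKM, and H4f16, the lone H4 gene classed with the variants, had 9 counts in all.

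**Figure D1:**
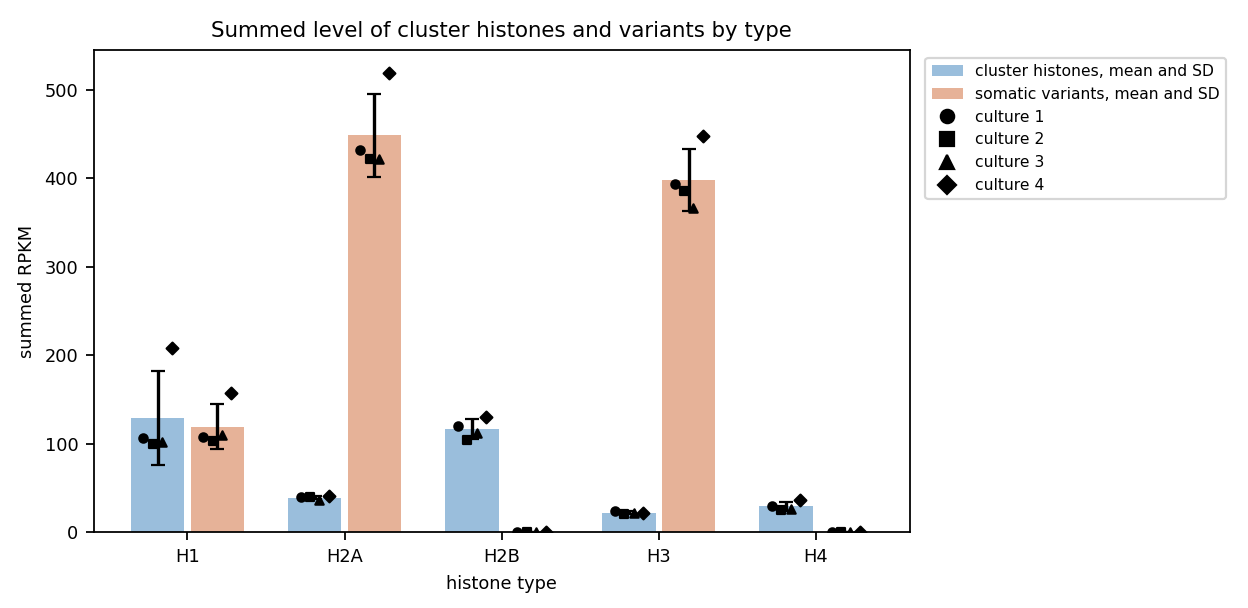
Summed RPKM (vertical axis, linear from 0) of cluster histones and somatic variants for each histone type; bars are means, error bars are SDs over 4 libraries, and points are the libraries. The variants stand 11.4-fold above the cluster genes for H2A and 17.8-fold for H3, while the H1 bars overlap within their spread on this scale; in CPM the H1 variants were 2.46-fold above.

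H3.3, the variant of H3 that is placed into chromatin outside replication, was encoded by the most abundant member. H3f3b had 540.5, 535.6, 517.5 and 694.9 CPM in cultures 1 to 4 and was rank 179 among all genes of the table. H3f3a, which encodes the same protein, had 190.0, 183.3, 170.9 and 189.1 CPM. Culture 4 was the highest library for H3f3b and lay within the range of the others for H3f3a. H3f3b gave 74.0%, 74.5%, 75.2% and 78.6% of their joint CPM, but since its deposited exon length is larger, its RPKM of 194.5 ± 28.0 was only 1.14-fold that of H3f3a (168.8 ± 8.11; log2 difference 0.20 ± 0.17, above in 4 of 4 libraries). The order of this pair therefore holds on both scales, and its size rests on the length used (3.10-fold without length).

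H3f3c, a further H3.3-like gene, had 36.4, 36.0, 34.7 and 38.6 CPM and non-whole counts. Its counts were 19.2%, 19.6%, 20.3% and 20.4% of those of H3f3a in the 4 libraries. The pseudogenes H3f3a-ps2 and H3f3a-ps1, outside the rule, stood at 21.8% ± 0.493 and 12.4% ± 0.325 of H3f3a (SD, n = 4). Whether these features share reads with H3f3a was not tested, and their levels are uncertain. H3f4, an H3 gene classed with the variants by its symbol, had 2 counts in total.

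H2A.Z, the variant that the SRCAP and EP400 complexes exchange into nucleosomes near promoters, had 2 genes. H2az1 had 240.3, 235.3, 230.7 and 295.5 CPM, and its RPKM of 234.3 ± 28.3 was the highest of all members. H2az2 had 132.1, 131.4, 127.9 and 132.6 CPM, with whole counts, and the smallest relative spread of the expressed members (BCV 0.0596). H2az1 was 3.22-fold above H2az2 per length and 1.90-fold without length, in 4 of 4 libraries on the first scale.

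H2ax encodes H2A.X, which is phosphorylated at DNA breaks. It had 148.7, 145.3, 150.0 and 197.1 CPM, with culture 4 above the other libraries. Its RPKM of 117.6 ± 18.1 was 1.61-fold that of H2az2 and 4.74-fold that of H2aj, a further H2A variant. H2aj had 45.6, 41.9, 47.1 and 45.2 CPM, and culture 4 lay within the range of the others. Among the linker variants, H1f0, which encodes H1.0, known to build up in resting and differentiated cells, had 161.2, 156.9, 157.8 and 253.9 CPM. H1f10, which encodes H1X, had 39.7, 37.5, 43.3 and 49.6 CPM with whole counts, and H1f0 was 1.95-fold above it per length and 4.22-fold without length. For both linker variants, culture 4 was the highest library.

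H1f2, which encodes the linker histone H1.2, was the most abundant cluster histone on both scales. It lies on chromosome 13 at 23738807 to 23739531 on the plus strand (GRCm38.p6) and had 68.5, 64.5, 65.2 and 131.7 CPM in cultures 1 to 4. Culture 4 stood apart, and the other 3 libraries spanned only 64.5 to 68.5. H1f2 gave 30.4%, 31.7%, 31.2% and 40.9% of the CPM of all cluster histones and 87.4% ± 0.995 of the CPM of cluster H1 (SD, n = 4). Per length it had 113.8 ± 45.3 RPKM, next to H2ax and above H1f0 in 4 of 4 libraries by 1.39-fold; without length it was 0.44-fold H1f0, so the order of H1f2 and H1f0 rests on the exon length. The deposited model of H1f2 is 725 bases long, and the GENCODE transcript runs 836 bases past its end, with a poly-A signal in its last 50 bases. Reads from that extension lie outside the deposited exons.

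The other cluster H1 genes were far lower. H1f4 (H1.4) had 4.69, 4.24, 4.61 and 9.38 CPM. H1f3 (H1.3) had 3.25, 3.13, 3.51 and 8.09 CPM. In both, culture 4 lay above the range of the other 3, as for H1f2, which was 15.6-fold above H1f4 per length. H1f5 and H1f1, named after their values were seen because they are the remaining somatic H1 genes, had 1.03 ± 0.743 and 0.776 ± 0.415 CPM (SD, n = 4) and missed the minimum. H1f6, the H1 gene of the testis, had 20 counts in all.

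H2bc4, an H2B gene of chromosome 13 (23684199 to 23692480, plus strand), was the next most abundant cluster histone. It had 46.9, 41.8, 41.3 and 45.7 CPM, and culture 4 lay within the range of the others. With H1f2 it gave 52.3% ± 1.94 of the CPM of all cluster histones, and alone it gave 47.4%, 48.1%, 45.6% and 38.5% of that of H2B. Its GENCODE model has no match to the stem-loop, and the 774 exon bases of the deposited model are spread over the interval given. Per length it had 56.8 ± 3.64 RPKM, 5.80-fold above H2bc8, the H2B gene after it on that scale.

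Below these came H2B genes with long deposited models. H2bc23 had 12.7, 10.5, 10.98 and 21.3 CPM. H2bc21, on chromosome 3 and with whole counts in every library, had 10.5, 9.80, 10.0 and 17.9 CPM. H2bc6 had 5.93, 5.23, 5.24 and 8.51 CPM, and in all these genes culture 4 was above the other libraries. Their models hold 2175, 2667 and 2510 exon bases, so that their RPKM of 6.37, 4.52 and 2.48 fell below that of H2bc8 (9.81 RPKM), which had 4.85, 4.09, 4.90 and 4.36 CPM. H2bc9, H2bc12, H2bc13, H2bc11, H2bc15 and H2bc22 followed with means of 1.65 to 2.46 CPM, and H2bc18 with 1.57 CPM.

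Only 3 cluster genes of H2A were expressed. H2ac18 and its copy H2ac19 had identical counts in every library, 6.31, 6.68, 5.82 and 5.67 CPM each. All 50-base windows of H2ac19 and 89.2% of those of H2ac18 occur in another member, so the 2 genes give 1 measurement. H2aw, of the histone cluster on chromosome 11, had 5.45, 5.34, 5.12 and 7.71 CPM, with non-whole counts and an overlap with Trim17 on the same strand. Culture 4 was the highest library for H2aw and the lowest for H2ac18 and H2ac19.

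The expressed cluster H3 genes all lie on chromosome 3 and encode H3.2. H3c14 had 4.71, 3.77, 4.21 and 3.64 CPM. H3c15 had 4.57, 3.82, 4.34 and 3.50 CPM, and H3c13 had a mean of 1.54 CPM. Culture 4 was the lowest library in each of them. Among the genes of H4, the partner of H3 in the nucleosome, H4c9 led with 4.63, 3.64, 3.96 and 6.19 CPM, and H4c18 and H4c17 had 1.19 and 1.18 CPM. H4c9 was highest in culture 4.

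**Figure D2:**
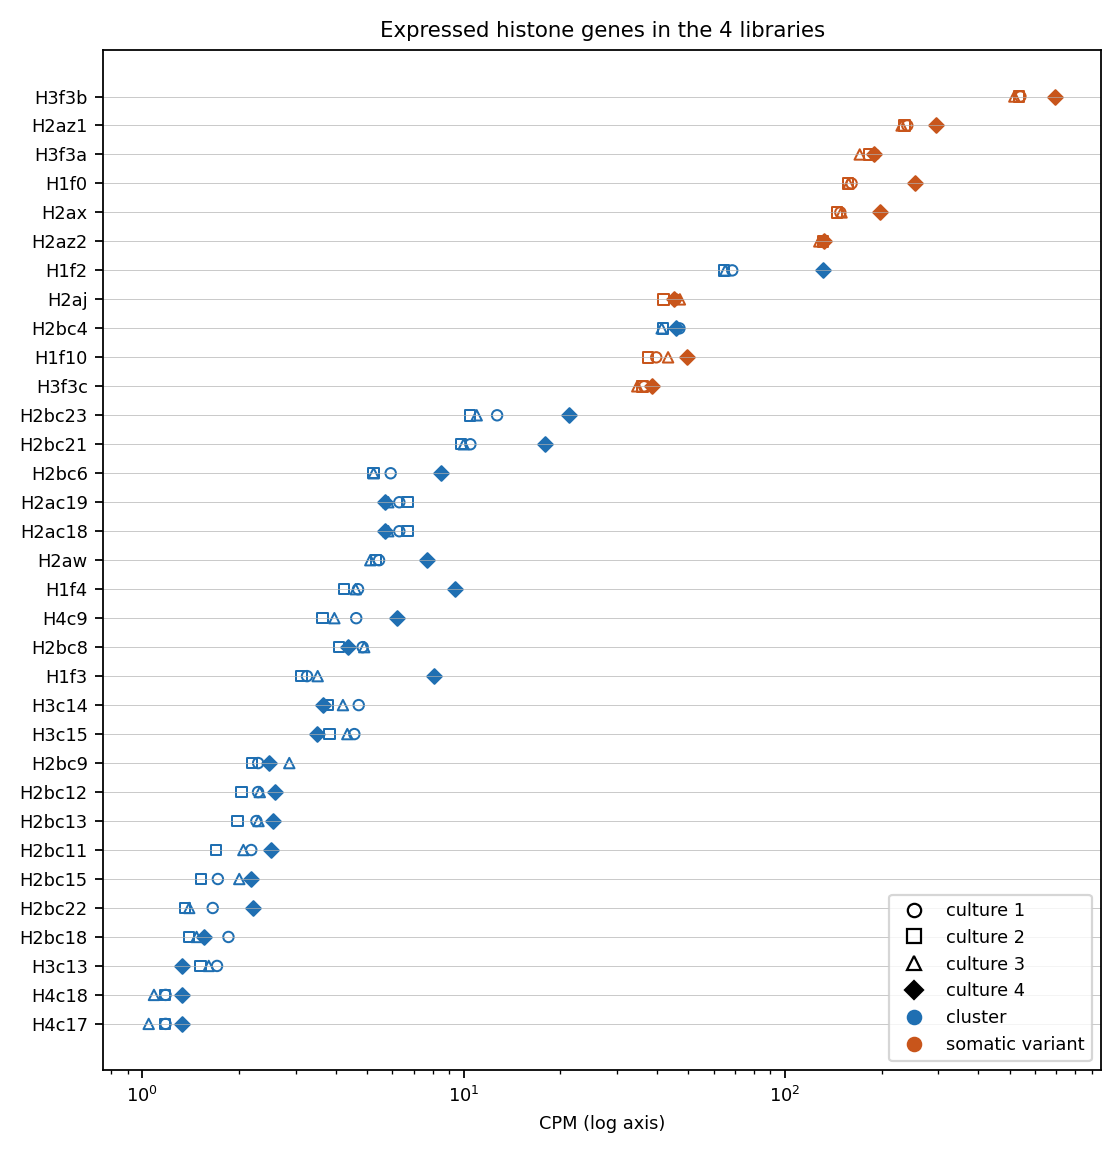
CPM (horizontal log axis) of the 33 expressed histone genes in each library; open symbols are cultures 1 to 3, filled diamonds culture 4, blue the cluster histones and orange the somatic variants. Only H1f2 and H2bc4 of the cluster histones reach the levels of the variants, and the diamond stands to the right of the open symbols for H1f0, H2ax, H1f2, H2bc23, H2bc21 and the other H1 genes.

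Reads of cluster histones are hard to assign to 1 gene. Of the members' values above 0, 79.9% were not whole numbers, against 31.7% over the table, and 5 of 65 cluster histones had whole counts in every library. The median share of 50-base windows of the GENCODE transcripts found in another member was 45.8% over the cluster histones and 0 over the somatic variants. It was above 50% in 28 cluster genes, among them 12 of H2A, 7 of H3, 5 of H2B and 4 of H4, and in 0 of H1. Levels of single H2A, H2B, H3 and H4 cluster genes are therefore uncertain. For H1f2, H1f4 and H1f3 the shares were lower, at 8.54%, 16.7% and 2.21%, but over whole GENCODE transcripts of 1560, 1930 and 7425 bases. Their deposited models hold 725, 782 and 776 exon bases, and the share within these was not computed. Counts of these H1 genes were not all whole numbers either.

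The annotated 3′ ends were then set beside the levels. The 22 cluster genes with more than 100 bases after the stem-loop in a GENCODE transcript summed to 130.3 ± 41.7 CPM (SD, n = 4), and 10 of them were expressed. The 23 with 100 bases or fewer summed to 27.4 ± 1.30 CPM, and 7 were expressed. The 20 without a match to the stem-loop, H2bc4 and H2bc21 among them, summed to 82.5 ± 12.9 CPM, and 7 were expressed. The first sum is mostly H1f2, and the median gene of the first class had 1.12 CPM against 0.554 in the second, and single genes of the first class ran from 0.0324 CPM (H4c14, with 1257 bases after the stem-loop and 5 counts in all) to 82.5 CPM (H1f2). Genes with an annotated poly-A signal were expressed in 8 of 15 cases and those without in 16 of 50.

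**Figure D3:**
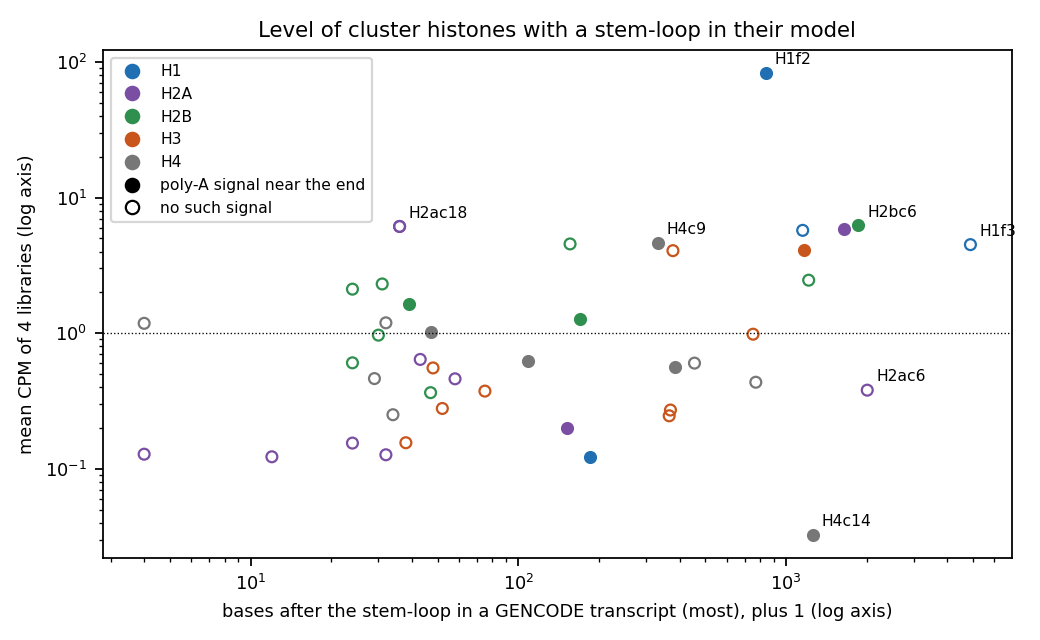
Mean CPM of the 4 libraries (vertical log axis) against the most bases after the stem-loop in a GENCODE transcript (horizontal log axis, plus 1) for the 45 cluster histones with a match; filled points have an annotated poly-A signal and the dotted line marks 1 CPM. H1f2 stands alone at the top, and genes with over 100 bases span from H4c14, with 5 counts in all, to H1f2.

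In 21 cluster histones a GENCODE transcript ran more than 100 bases past the 3′ end of the deposited model, by 4879 bases at most, in H1f3. In the somatic variants this held for 2, H3f3a (1728 bases) and H4f16. Reads from these stretches are not in the counts of these genes if only the deposited exons were counted.

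Whether the members differed among the libraries was tested by a likelihood-ratio test of edgeR, with the dispersion set to 0, over all genes with at least 40 counts. It asks whether libraries differed by more than counting error, so that it compares libraries and not conditions, and its power rises with the count. It called 50.9% of 17969 genes at a Benjamini-Hochberg adjusted p of 0.05. Of the members 22 of 60 tested were called, 15 of 51 cluster histones and 7 of 9 somatic variants. By type these were 5 of 5 cluster H1 genes, 1 of 7 of H2A, 6 of 17 of H2B, 1 of 11 of H3 and 2 of 11 of H4. Among the 24 expressed cluster genes 10 were called, with the smallest adjusted p for H1f2 (1.62e-302 by this edgeR test, which covers counting error only). None of the expressed H3 genes was called (adjusted p = 0.0846 for H3c14, 0.0765 for H3c15 and 0.574 for H3c13), and the H3 gene that was, H3c6, lay under the expression minimum (adjusted p = 0.00345).

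Without culture 4 the same test called 8.76% of 17297 genes and 5 of 54 members. These were the cluster gene H2bc4 and the variants H3f3b, H3f3a, H2aj and H1f10. No cluster H1 gene was called among cultures 1 to 3. The labels do not say that the cultures came from separate animals. The median BCV was 0.346 over the 5 cluster H1 genes, 0.136 over the 45 cluster histones with a value and 0.0975 over the somatic variants, beside 0.0944 over all genes. BCV tended to be larger at low counts in these data, and the median level was 0.641 CPM for cluster histones against 131.0 CPM for somatic variants. Genes of like level were not set beside them, so these medians do not show which group spread more than usual.

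Culture 4 was therefore set beside the mean of cultures 1 to 3, without a test, since these are values of 1 library. Of the 24 expressed cluster histones 15 were higher in culture 4 than in each other culture, 5 were lower than in each, and 7 were over 1.5-fold above the mean of the others. With the copies H2ac18 and H2ac19 counted once, 15 of 23 were higher and 4 lower. H4c17 and H4c18, which had nearly the same counts, were still counted apart. Over all 14725 expressed genes the shares were 47.6% higher, 34.6% lower and 2.02% over 1.5-fold higher. Of the 9 expressed somatic variants 7 were higher, 0 lower, and 1, H1f0, over 1.5-fold. The median log2 difference was 0.22 for the cluster histones (range -0.28 to 1.29), 0.30 for the variants (range 0.01 to 0.68) and 0.04 for all expressed genes.

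The cluster H1 genes lay highest as a group. H1f2 was 1.99-fold in culture 4, H1f4 2.08-fold and H1f3 2.45-fold. Of the genes under the minimum, H1f5 was 3.21-fold and H1f1 2.23-fold, and all 6 cluster H1 genes, H1f6 included, were higher in culture 4 than in each other library. The linker variants were 1.601-fold for H1f0 and 1.23-fold for H1f10. Summed, cluster H1 was 2.03-fold in culture 4 and the other cluster histones 1.23-fold, and the cluster share of H1 RPKM was 49.8%, 49.0%, 48.2% and 57.0% in cultures 1 to 4.

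The core histones were uneven in culture 4. Of the expressed H2B genes 8 of 12 were higher in culture 4 than in each other library and 0 lower. Over all expressed genes 47.6% were higher and 34.6% lower. H2bc23 (1.87-fold), H2bc21 (1.77-fold) and H2bc6 (1.56-fold) led, while H2bc4 was at 1.06-fold. Of the 8 higher genes, H2bc11, H2bc12, H2bc13 and H2bc15 were not called in the test among libraries. Between 59.4% and 86.4% of the 50-base windows of these uncalled genes occur in another member. All 3 expressed H3 cluster genes, on chromosome 3, were lower than in each other library, at 0.82 to 0.86-fold. Most H3 genes under the minimum, on chromosome 13, went the other way, but H3c4 did not (0.937-fold). Over all 12 cluster H3 genes 8 were higher and 3 lower than in each other library, and their summed level was at 0.989-fold. H3c6 was at 3.27-fold and H3c2 at 2.199-fold on 44.6 and 45.5 counts in all. Only H3c6 of the cluster H3 genes tested was called among libraries. A median of 57.25% of the 50-base windows of cluster H3 genes occur in another member, so their counts are not separate measurements. The duplicate genes H2ac18 and H2ac19 were at 0.90-fold. All 3 expressed H4 genes were higher, with H4c9 at 1.52-fold, but H4c17 and H4c18 had nearly the same counts and are not separate measurements. Among the variants, H2ax was 1.33-fold, H3f3b 1.31-fold and H2az1 1.26-fold, while their partner genes H3f3a (1.04-fold) and H2az2 (1.02-fold) were near the level of the other cultures. The sign of the culture 4 difference turned with the scaling of the libraries for H2aj, H2az2 and H2bc9, all within 0.03 of 0 on the log2 scale, and for no other expressed member.

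**Figure D4:**
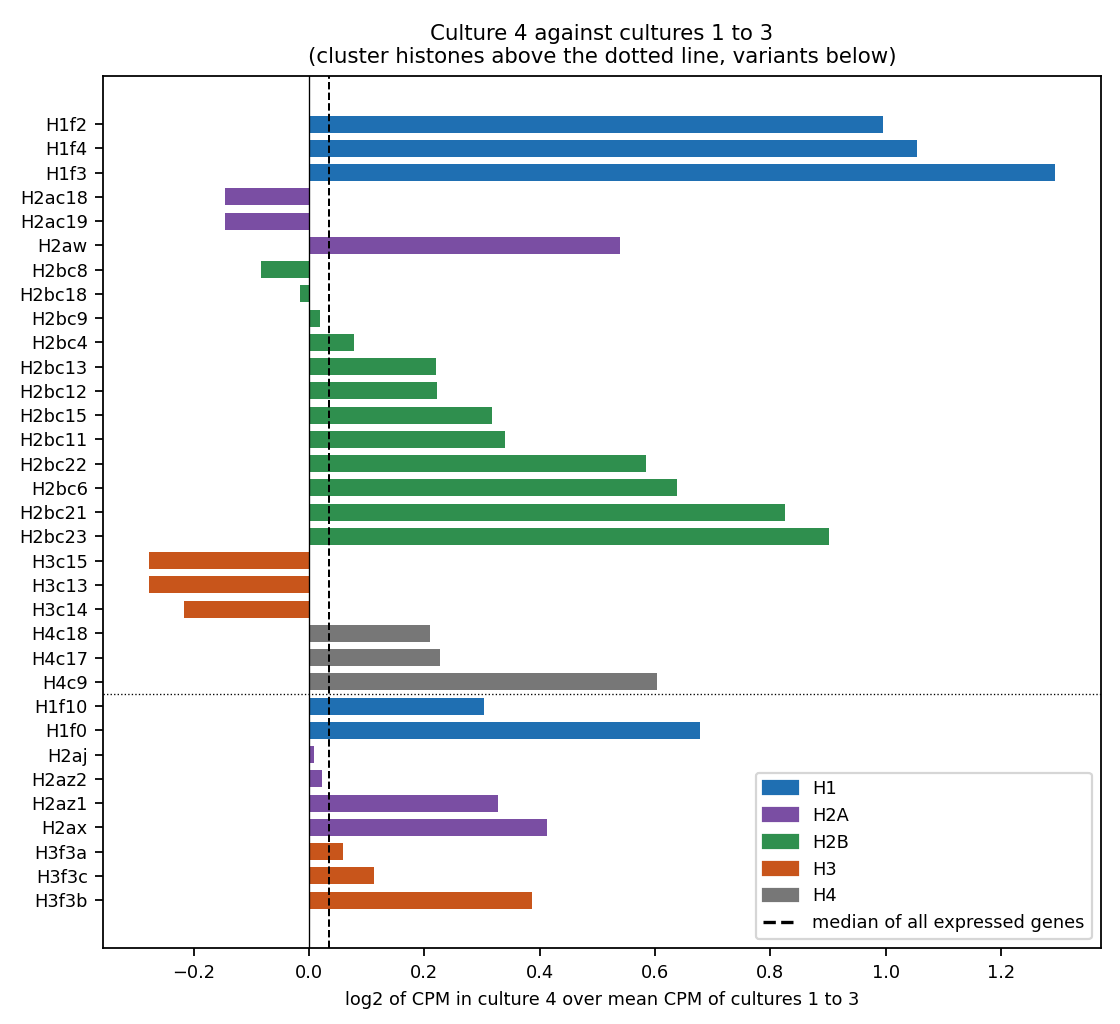
log2 of the CPM in culture 4 over the mean CPM of cultures 1 to 3 (horizontal axis) for the 33 expressed histone genes, coloured by type, with cluster histones above the dotted line; the dashed line is the median of all expressed genes, 0.04. The 3 cluster H1 genes reach 1.00 to 1.29, and the 3 expressed cluster H3 genes lie below 0. Not plotted are 8 cluster H3 genes under the minimum that were higher in culture 4, of which only H3c6 was called in the test among libraries.

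The place in the genome went with part of this pattern. Of the 7 expressed cluster genes on chromosome 3, which include all 3 expressed H3 genes and the H2A copies, 5 were lower in culture 4 than in each other library and 1, H2bc21, was higher (4 and 1 of 6 with the copies counted once). None of the 5 lower genes was called in the test among libraries. Between 34.7% (H3c14) and 100% (H2ac19) of their 50-base windows occur in another member. Of the 9 expressed genes on chromosome 13 below 23 Mb, 9 were higher and 0 lower, beside 47.6% higher over all expressed genes. Only H2bc22, H2bc23 and H4c9 of the 9 were called in the test among libraries. In H2bc11, H2bc12, H2bc13 and H2bc15, which were not called, 59.4%, 74.2%, 82.8% and 86.4% of the 50-base windows occur in another member. H4c17 and H4c18, also not called, had nearly the same counts (190.88 and 192.38 in all). Of their 50-base windows 89.8% and 85.6% occur in another member, so they are not separate measurements. The 7 expressed genes above 23 Mb, with H1f2, H1f3 and H1f4, had 4 higher and 0 lower, with a median log2 difference of 0.64. The annotated 3′ end also went with it: expressed cluster genes with a poly-A signal had a median log2 difference of 0.62 (n = 8), those without one 0.14 (n = 16). It did not hold gene by gene, since H1f3 (1.29) and H1f4 (1.06), the highest of the expressed cluster genes, have no annotated signal, and H3c14 (-0.22) has one. Since histone type, place and 3′ end overlap in these few genes, they cannot be told apart.

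Other genes differed in culture 4 as well. All 18 S-phase genes were higher there than in each other library, with a median log2 difference of 0.33 and summed levels of 2047, 2065, 2046 and 2602 CPM. All 10 proliferation genes were higher too, with a median of 0.37, but Pcna, Mcm2, Mcm5 and Rrm2 are in both lists. Over all expressed genes 47.6% were higher in culture 4. The fibroblast markers summed to 1355, 1322, 1407 and 491.0 CPM, with Dcn and Lum, small matrix proteoglycans, under the minimum, and all 5 microglia markers that were expressed were lower (median log2 difference -0.62). Of the neuron markers 0 were higher and 3 lower, with Tubb3, a neuronal tubulin, at 0.38-fold, and of the oligodendrocyte lineage markers 1 was higher and 3 lower. The one expressed endothelial marker, Flt1, was at 0.24-fold. Of the astrocyte markers 4 were higher and 6 lower in culture 4, with Gfap, an intermediate filament of astrocytes, at 0.51-fold and S100b at 0.45-fold. The part of these genes or cell types in the histone differences was not tested.

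The machinery that makes and places histones was described from lists. Of 12 genes for histone transcription and 3′ end formation 11 were expressed, with a median log2 difference of 0.17 in culture 4. There 10 of the 11 were higher than in each other library, beside 47.6% of all expressed genes. Slbp is in both this list and the S-phase list. Cstf2, Sympk, Cpsf2 and Cpsf1, which also serve ordinary poly-A sites, were the most abundant (125.2, 122.4, 99.8 and 86.4 CPM). The factors of the histone pathway itself were expressed as well, except Zfp473, a zinc finger protein of the U7 complex, at 0.903 CPM. Casp8ap2 (FLASH), a part of that complex, had the largest culture 4 difference of the expressed genes of the list at 1.42-fold (Zfp473, under the minimum, was at 1.46-fold) and Lsm10, a ring protein of the U7 particle, the smallest at 0.99-fold. All 7 genes of histone mRNA decay were expressed, with a median of 67.5 CPM: 5 were higher and 1 lower in culture 4, with Dis3 of the exosome at 1.23-fold and Tut7, a uridylyl transferase, at 0.98-fold.

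The chaperones were expressed without exception. This held for 7 of 7 H3-H4 chaperones of replication, led by Rbbp4 (298.9 CPM), Nasp (181.9 CPM) and Mcm2 (162.3 CPM), for 7 of 7 H3.3 deposition factors, led by Dek (197.7 CPM) and Atrx (142.5 CPM), for 8 of 8 genes of H2A.Z exchange, led by Anp32e (362.5 CPM), and for 7 of 7 chaperones of H2A-H2B and others, led by Nap1l1 (372.3 CPM) and Npm1 (356.7 CPM). In culture 4 all of these genes but Znhit1, a subunit of the SRCAP complex, were higher than in each other library, and the list medians were 0.34, 0.28, 0.26 and 0.29 on the log2 scale. Against the 47.6% of all expressed genes that were higher, this is a description of 1 library, and the lists were chosen with earlier results known. Mcm2 is also in the S-phase and proliferation lists. Outside the rule, Macroh2a1 had 153.3 CPM, Macroh2a2 46.6 CPM and Cenpa, the H3 variant of centromeres, 66.2 CPM.

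Shown are the promoters of the expressed cluster H1 genes, which stood together in culture 4, and of the linker variant H1f0. Those of H1f1, H1f5, H1f6 and H1f10 are not shown. The promoters come from RefSeq (GRCm38.p6) and run from 250 bases before to 50 bases after the annotated start. They were given for 96 of the 102 members. Capitals mark CCAAT boxes (CCAAT), TATA boxes (TATAAA) and the AAACACA element known from H1 genes, on either strand, and matches of different motifs may overlap.

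H1f2, chr13:23738557-23738856, plus strand: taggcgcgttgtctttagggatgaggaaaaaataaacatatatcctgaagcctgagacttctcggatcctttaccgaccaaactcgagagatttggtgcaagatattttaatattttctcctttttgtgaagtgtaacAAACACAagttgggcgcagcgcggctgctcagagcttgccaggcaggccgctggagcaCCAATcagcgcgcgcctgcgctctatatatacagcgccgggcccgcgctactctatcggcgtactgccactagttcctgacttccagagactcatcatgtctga
H1f3, chr13:23554782-23555081, plus strand: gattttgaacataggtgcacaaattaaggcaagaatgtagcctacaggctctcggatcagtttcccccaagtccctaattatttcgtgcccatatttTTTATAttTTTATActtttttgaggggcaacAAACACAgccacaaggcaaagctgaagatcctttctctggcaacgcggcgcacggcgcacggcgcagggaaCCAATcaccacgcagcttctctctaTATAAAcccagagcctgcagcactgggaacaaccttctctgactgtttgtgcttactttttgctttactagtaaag
H1f4, chr13:23622509-23622808, minus strand: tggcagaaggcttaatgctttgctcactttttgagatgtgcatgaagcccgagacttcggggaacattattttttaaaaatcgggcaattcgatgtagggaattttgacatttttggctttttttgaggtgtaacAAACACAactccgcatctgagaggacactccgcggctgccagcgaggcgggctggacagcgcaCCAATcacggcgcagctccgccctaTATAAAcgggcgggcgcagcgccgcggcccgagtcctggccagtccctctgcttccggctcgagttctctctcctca
H1f0, chr15:79027962-79028261, plus strand: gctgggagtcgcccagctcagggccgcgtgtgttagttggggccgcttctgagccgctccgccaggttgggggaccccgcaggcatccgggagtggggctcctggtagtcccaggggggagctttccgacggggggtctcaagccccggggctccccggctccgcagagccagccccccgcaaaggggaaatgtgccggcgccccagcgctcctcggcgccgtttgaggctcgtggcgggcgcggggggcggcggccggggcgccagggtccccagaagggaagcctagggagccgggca

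The AAACACA element was present in 5 of 6 cluster H1 promoters, and in 2 of 18 of H2A, 2 of 15 of H2B, 0 of 10 of H3 and 0 of 11 of H4, beside 8.22% of all 27025 promoters in the table. The cluster H1 promoter without it was that of H1f1, which was 2.23-fold in culture 4. Whether the element has a part in the culture 4 differences was not tested. In H1f2, H1f3 and H1f4 the element was followed by a CCAAT box, and the H1f0 window holds none of the motifs searched. CCAAT was in all promoters of cluster H1, H2A, H2B and H3 genes and in 3 of 11 of H4 (41.1% of all promoters), and TATAAA in 35 of 60 cluster promoters (15.7% of all). The octamer ATTTGCAT was in 7 of 18 H2A and 7 of 15 H2B cluster promoters and in none of the cluster H1, H3 and H4 promoters, beside 1.97% of all. Of the 10 somatic variants with a promoter, 6 held CCAAT, 2 TATAAA, 1 the octamer and 1 AAACACA. These are matches of letters in a fixed window, not sites shown to be used.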

How the data were processed

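The table holds estimated counts per gene that the authors deposited for 4 libraries of 1 group. Per the labels' protocols, RNA with an integrity number above 9.3 (500 ng) went through oligo-dT selection, a kit that marks strand and 14 PCR cycles. The submitters' processing notes list featureCounts 1.6.4 (Subread), STAR 2.7.2b, cutadapt 1.17, bcl2fastq 2.20.0.422 and the build GRCm38.p6. Not given in the sources used here is what each did, in which order, with which settings and strand, and how reads that fit several genes were handled. Counts of a single gene in a family are therefore uncertain.

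CPM used the raw library sums and RPKM the deposited combined exon length, which understates genes with long models of which only a short form is used. Counts were rounded to whole numbers for edgeR 4.0.16 (TMM normalization; BCV from an intercept-only design on 17105 genes kept by its default filter), and the test among libraries was adjusted over all 17969 genes. A check of this test on simulated counts drew counting error only, as the test assumes. That check cannot show how the test behaves with the further spread of these libraries. Python 3.11.15, R 4.3.3 and DESeq2 1.42.0 (size factors only) were used. Floors of 3 counts cover counting error only, since PCR copies without molecular identifiers are not independent molecules. The p-values measure departure from counting error between these libraries, not the size of their spread, and they fall as counts rise. The departure may be technical.

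Cluster and variant classes were read from the symbols, so that H4f16 (older symbol Hist4h4) and H3f4 stand with the variants. The members, classes and gene lists were chosen with earlier results of these data known. Every somatic variant was named, and of the expressed cluster histones the 20 highest by mean CPM. From the lists, values were given for at most the 4 highest genes, those under the minimum and those with the largest and smallest culture 4 difference. H1f1, H1f5, H1f6, H2ac1, H2bc18, H3c2, H3c4, H3c6, H3c13, H4c14, H4c17 and H4c18 fall outside this rule and were named after their values were seen. Other scalings, minimums, lengths and subsets of libraries and members were tried.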

Additional observations from a re-analysis of the deposited data

Results flagged for a closer look

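In 9 of 31 named genes tested, 1 library lay far from the other 3, and in each it was culture 4. By the same measure 15.2% of all 14725 expressed genes had a library apart, and 13.8% had culture 4 apart, beside 29.0% of the named genes. Chance alone flags about 1 in 20 such groups, and the genes share the same 4 libraries. These genes were the variants H3f3b (694.9 CPM in culture 4), H2az1 (295.5 CPM), H1f0 (253.9 CPM) and H2ax (197.1 CPM) and the cluster histones H1f2 (131.7 CPM), H2bc21 (17.9 CPM), H1f4 (9.38 CPM), H1f3 (8.09 CPM) and H2aw (7.71 CPM). All the linker histone genes of the cluster that were expressed are among them. Of the cluster H3 and H4 genes only H3c14, H3c15 and H4c9 were tested, and none of these is. The other cluster H3 and H4 genes were not tested in this way, so the types cannot be compared.

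Counts were also found in histone features outside the rule. The pseudogene H3f3a-ps2 had a mean of 39.9 CPM and H3f3a-ps1 of 22.6 CPM, with counts that were not whole numbers. The pseudogene H2af-ps2 had a mean of 12.1 CPM, with 14.3, 13.7, 13.9 and 6.68 CPM in cultures 1 to 4, so that culture 4 was the lowest library. H2bu1-ps had a mean of 0.129 CPM. Whether their reads come from the parent genes was not tested.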

How the results depend on the processing

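The variants stayed above the cluster histones in summed level under every setting tried, by other amounts: the log2 ratio of -1.53 was -2.76 without a length term, -2.82 with GENCODE coding length, -1.70 over expressed members only, -3.77 over members with whole counts and -0.91 with H2ax among the cluster genes, and it stayed within -1.59 to -1.49 when each library was left out. The number of expressed cluster histones, 24, was 48 at a TPM of at least 1 and 1 over members with whole counts, 25 under both other scalings, 34 at an RPKM of at least 1 and 32 at a CPM of at least 0.5; leaving out a library gave 24 to 25. The 9 expressed somatic variants were 2 over members with whole counts and 9 under every other setting. The 22 members that differed among libraries fell to 5 without culture 4 and were 20 to 21 without another culture, 21 without a filter on low counts and 18 with the dispersion of cultures 1 to 3 in place of 0. The median log2 difference of the expressed cluster histones in culture 4 (0.22; settings chosen after seeing the data) was 0.20 and 0.19 under the other scalings and 0.83 over H2bc21, the lone such gene with whole counts. The subset with whole counts holds fewer genes by construction; for the other settings the cause was not tested. No paired analysis was possible because all libraries belong to 1 group. At this depth 1 cluster histone, 1 somatic variant and 24 germline variants stayed at or under the floor of 3 counts, so that no level can be given for them.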
